A study of Mus musculus with 7 samples.

Results

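Surface markers that divide the memory B cell (MBC) pool of the mouse were followed at the transcript level in MBCs and plasma cells (PCs). The genes were Cd80, Pdcd1lg2, Nt5e, Cd38 and Entpd1, which encode CD80, CD273 (PD-L2), CD73, CD38 and CD39. They were chosen by name, not by their values, though with earlier results of these data known. All 5 were found once each among the 48795 genes of the expression table.

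The 7 libraries were bulk RNA sequencing of cells sorted from the spleens of wild type C57BL/6 females, aged 8 to 12 weeks, that had received sheep red blood cells intravenously 10 days earlier. All 7 libraries share this immunization, a CD43 MicroBead step to enrich B cells and lysis of red cells. MBCs (n = 3 libraries) were gated as B220+, CD138neg, IgDneg, CD38+ and CD273+, and PCs (n = 4 libraries) as B220lo, CD138+ and IgD-. No unimmunized or naive B cell library is part of the comparison, so every difference below is one between MBCs and PCs. The proteins of 2 of the 5 genes, Cd38 and Pdcd1lg2, were gates for MBCs and not for PCs, and a difference in those transcripts is therefore not independent of the sort. CD80, CD73 and CD39 were not gated, but their transcripts too were measured in CD273+ MBCs only, and MBCs without CD273 were not sampled.

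Memory B cells are not one population. In mice, the surface proteins CD80, CD273 and CD73 are used in combination to separate MBCs that readily become antibody-secreting cells on a second encounter with antigen from those that tend to re-enter germinal centers (GCs). CD80 and CD273 are ligands of the B7 family, which speak to T cells through CD28, CTLA-4 and PD-1. CD38, CD39 and CD73 are enzymes whose active site faces the outside of the cell. CD39 removes phosphates from extracellular ATP and ADP, CD73 turns the resulting AMP into adenosine, and CD38 consumes NAD. In mice CD38 is high on naive and memory B cells and low on GC B cells and PCs, which is why it serves as a gate.

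Levels are given as scaled TPM, the deposited TPM (transcript abundance within a library, relative to a fixed total) divided by a factor per library. That factor is the median ratio of a library's genes to their geometric means over all libraries, from genes above 0 in every library. The median of all tested genes was therefore not forced to be level. TPM is corrected for transcript length, so levels of different genes can be set side by side. A gene was called when limma gave an adjusted p under 0.05, over 11573 genes tested, and a log2 fold change of at least 1 in either direction, on the log2(scaled TPM + 1) scale. Fold changes on that scale are PC minus MBC, so a negative value is a lower level in PCs, and they understate changes of genes near 0. The labels do not say that the libraries of a group came from separate mice, so p-values measure the spread between these libraries only.

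One library has to be described before the results. The library labelled MBC replicate 3 carried little transcript of either gate marker: Cd38 was at 6.77 scaled TPM and Pdcd1lg2 at 2.59. Its summed GC B cell markers reached 663.7 scaled TPM, against 244.0 and 270.1 in MBC replicates 1 and 2 and 70.3 to 139.5 in PCs. Its summed proliferation markers reached 702.5, against 104.2 and 115.7 in the other MBCs and 369.4 to 478.2 in PCs. It also had the most genes above 0 of the MBC libraries, 18061 against 12983 and 11527. Sdc1, the gene of CD138, was at 0.0585 scaled TPM in it, listed at 0 in the other MBCs and at 49.6 to 78.1 in PCs. Its title has a prefix that it shares with PC replicate 4 alone, and no other MBC library has that prefix, so what sets this library apart and what the prefix may mark cannot be told apart. Results are given with and without it. The 5 B cell markers summed to 1292.9 to 3307.6 scaled TPM in MBCs and 759.6 to 928.8 in PCs, and the 5 PC markers to 130.2 to 185.9 and 8741.7 to 14573.6. Of other cells, the erythroid markers summed to 2896.8 in MBC replicate 2 and to at most 72.6 elsewhere, and the NK and platelet markers to at most 5.87 and 4.58 in any library.

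The promoters of the 4 markers with wide differences between libraries are shown first, since these are the sequences at which transcription of Cd80, Pdcd1lg2, Cd38 and Entpd1 begins. They are from RefSeq (GRCm38.p6), where all 5 members had an entry, and run from 250 bases before to 50 after the start, on the + strand. Cd80 is at chr16:38458683-38458982, Pdcd1lg2 at chr19:29410669-29410968, Cd38 at chr5:43868559-43868858, and the 2 start sites of Entpd1 at chr19:40612116-40612415 and chr19:40659520-40659819. Capitals mark matches, on either strand, to an E-box (CAGNTG), an ETS core (GAGGAA), an NF-kappaB site (GGGA, any 4 bases, CC), an IRF site (GAAA, any 2 bases, GAAA) or an AP-1 site (TGANTCA).
Cd80: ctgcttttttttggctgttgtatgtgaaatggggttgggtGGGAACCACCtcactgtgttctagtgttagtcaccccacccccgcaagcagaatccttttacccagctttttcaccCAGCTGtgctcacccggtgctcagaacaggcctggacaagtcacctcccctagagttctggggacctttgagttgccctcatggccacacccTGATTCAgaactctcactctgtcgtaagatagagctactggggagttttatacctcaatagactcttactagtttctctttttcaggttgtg
Pdcd1lg2: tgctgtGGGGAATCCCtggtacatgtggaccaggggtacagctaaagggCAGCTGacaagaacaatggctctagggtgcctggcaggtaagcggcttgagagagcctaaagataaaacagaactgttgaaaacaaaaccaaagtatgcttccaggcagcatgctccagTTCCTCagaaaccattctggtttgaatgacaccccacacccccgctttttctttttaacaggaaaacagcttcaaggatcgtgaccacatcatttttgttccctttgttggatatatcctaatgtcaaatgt
Cd38: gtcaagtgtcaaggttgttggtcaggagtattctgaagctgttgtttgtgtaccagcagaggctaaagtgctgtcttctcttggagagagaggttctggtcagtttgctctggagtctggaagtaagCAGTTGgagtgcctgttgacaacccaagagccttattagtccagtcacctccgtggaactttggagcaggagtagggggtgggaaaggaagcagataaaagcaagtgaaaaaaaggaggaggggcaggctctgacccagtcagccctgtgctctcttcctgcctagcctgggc
Entpd1 site 1: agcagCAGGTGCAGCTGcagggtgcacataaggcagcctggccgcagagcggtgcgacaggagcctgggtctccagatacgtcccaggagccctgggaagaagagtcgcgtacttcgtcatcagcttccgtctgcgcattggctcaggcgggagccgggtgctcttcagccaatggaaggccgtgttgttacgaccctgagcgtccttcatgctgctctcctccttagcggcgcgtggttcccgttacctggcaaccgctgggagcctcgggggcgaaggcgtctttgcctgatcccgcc
Entpd1 site 2: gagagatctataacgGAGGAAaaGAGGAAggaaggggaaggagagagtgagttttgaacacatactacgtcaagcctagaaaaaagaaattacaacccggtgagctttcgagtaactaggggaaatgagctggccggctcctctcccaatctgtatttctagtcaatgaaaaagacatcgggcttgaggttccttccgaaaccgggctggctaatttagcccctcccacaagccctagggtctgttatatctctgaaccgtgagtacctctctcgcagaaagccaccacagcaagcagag

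The window of Cd80 held 1 E-box, 1 NF-kappaB and 1 AP-1 match. That of Pdcd1lg2 held 1 E-box, 1 ETS and 1 NF-kappaB match, and that of Cd38 held 1 E-box match alone. The upstream window of Entpd1 held 2 E-box matches, which abut each other, and the downstream window 2 ETS matches. Matches of different motifs did not overlap. Such letters are common: of 32851 promoters of this length, 51.4% held the E-box, 28.3% the ETS core, 20.7% the NF-kappaB pattern, 7.81% the AP-1 pattern and 3.44% the IRF pattern, of which none was in these windows. The B7 ligand genes Cd80 and Pdcd1lg2 both held the NF-kappaB pattern, and so did Nt5e, whose window, at 71.0% G and C, was the richest of the 6 in these bases. The RefSeq start sites of Cd80, Cd38 and Nt5e and the downstream site of Entpd1 lie inside the genes as annotated by GENCODE, not at their first base.

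Of the 5 markers, Entpd1 was called with all 7 libraries, and it was higher in PCs. Over all genes tested, 8.55% were called in either direction, 6.41% higher and 2.14% lower in PCs. Cd80, Pdcd1lg2, Cd38 and Nt5e had lower means in PCs and were not called. Without the library labelled MBC replicate 3, 4 of the 5 were called: Cd80, Pdcd1lg2 and Cd38 lower in PCs, where 8.2% of all tested genes were, and Entpd1 higher, where 15.1% were. That library was singled out in part by its low Cd38 and Pdcd1lg2, and it was also the lowest MBC library for Cd80. Leaving it out therefore widens these 3 differences by construction, and their calls without it are not independent support. Levels are totals over sorted cells, in which fewer cells carrying a transcript and less of it in each cell cannot be told apart.

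**Figure D1:**
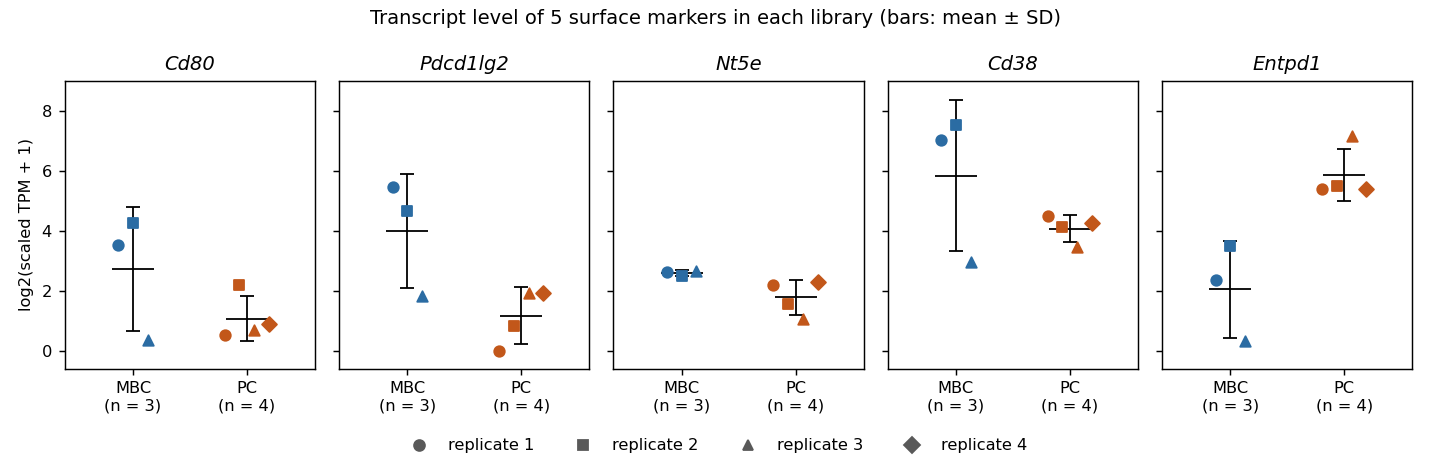
Each point is one library, with the level of the gene as log2(scaled TPM + 1) on the vertical axis, 3 MBC libraries in blue and 4 PC libraries in orange, and horizontal lines with bars for the mean ± SD. The triangle of the MBC panel, replicate 3, lies far below the other 2 MBC points for Cd80, Pdcd1lg2, Cd38 and Entpd1 but beside them for Nt5e, and the triangle of the PC panel stands above the others for Entpd1.

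Cd80 (ENSMUSG00000075122; chr16:38455561-38496335, + strand) encodes B7-1, which binds CD28 and CTLA-4 on T cells. The 3 MBC libraries, in replicate order, were at 10.5, 18.0 and 0.283 scaled TPM for Cd80 and the 4 PC libraries at 0.425, 3.55, 0.615 and 0.850. MBC replicates 1 and 2 were above every PC library, and the library labelled MBC replicate 3 was below every PC library on scaled TPM, so the groups overlapped. On TPM as deposited that library, at 0.58, was inside the PC range of 0.27 to 2.39. MBCs averaged 9.62 ± 8.92 scaled TPM (SD, n = 3) and PCs 1.36 ± 1.47 (SD, n = 4), a 7.07-fold higher mean in MBCs. The log2 fold change of -1.64 (SE 0.91, 95% interval -3.67 to 0.39) did not pass (limma, adjusted p = 0.303). Without the library labelled MBC replicate 3 it was -2.75 (SE 0.61) and passed (limma, adjusted p = 0.0169). Cd80 reached 1 TPM in 3 libraries only, MBC replicates 1 and 2 and PC replicate 2, which is the minimum for testing, so it could not be tested when any of those was left out.

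Pdcd1lg2 (ENSMUSG00000016498; chr19:29410919-29471161, + strand) encodes the PD-1 ligand CD273, a gate of the MBC sort. Its transcript was at 43.3, 24.4 and 2.59 scaled TPM in the 3 MBC libraries in turn, and PC replicates 1 to 4 had 0, 0.758, 2.84 and 2.83. On scaled TPM the library labelled MBC replicate 3, whose cells were gated on the protein, fell inside the range of PCs. On TPM as deposited it had 5.32 of Pdcd1lg2, above the 0 to 2.31 of PCs, so there the groups did not overlap. The MBC mean of 23.4 ± 20.4 scaled TPM (SD, n = 3) was 14.6-fold the PC mean of 1.61 ± 1.45 (SD, n = 4), the widest ratio of the 4 markers with a higher mean in MBCs. The log2 fold change of -2.82 (SE 0.90, 95% interval -4.84 to -0.81) missed the threshold (limma, adjusted p = 0.0905). Without that library it was -3.82 (SE 0.67; limma, adjusted p = 0.0072). Another gene, A930007I19Rik, lies antisense to Pdcd1lg2 and was at 0.73 TPM or less in every library.

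Cd38 (ENSMUSG00000029084; chr5:43868553-43912375, + strand) encodes the NAD glycohydrolase CD38, also a gate of the MBC sort. MBC replicates 1 and 2 had 130.3 and 185.7 scaled TPM of Cd38, the library labelled MBC replicate 3 had 6.77, and PC replicates 1 to 4 had 21.3, 16.4, 9.89 and 18.1. In MBC replicates 1 and 2 it stood above 96.7% and 96.9% of the tested genes, and in the library labelled MBC replicate 3 above 48.4%. On scaled TPM that library was below all 4 PC libraries and the other MBC libraries were above all of them. The position of that library turned with the scaling: on TPM as deposited it had 13.9 of Cd38, above the 8.04 to 13.56 of PCs, and the groups did not overlap. As for Pdcd1lg2, this is a scale with a median log2 fold change of -0.91 over all tested genes, and the share not overlapping was not counted. The means were 107.6 ± 91.6 (SD, n = 3) and 16.4 ± 4.82 scaled TPM (SD, n = 4). The log2 fold change was -1.77 (SE 0.95, 95% interval -3.91 to 0.36; limma, adjusted p = 0.292) with all libraries and -3.21 (SE 0.39; limma, adjusted p = 0.00152) without that library. PCs were not at the bottom of the range for this gene: Cd38 stood above 55.2% to 73.9% of the tested genes in them.

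Other transcripts inside the Cd38 gene followed it in part. Gm16014, a sense intronic transcript, had 9.09, 28.73 and 0.26 TPM in the MBC libraries, in replicate order, and 0.64 TPM or less in PCs. The antisense Gm16015 was at 2.39 TPM in MBC replicate 2 and listed at 0 elsewhere. Whether the counting used strand is not given in the sources used here, so reads of Cd38 and of these transcripts may have been split between them.

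Nt5e (ENSMUSG00000032420; chr9:88327197-88372092, + strand) encodes CD73, the ectonucleotidase that makes adenosine from AMP. The MBC libraries had 5.17, 4.58 and 5.26 scaled TPM of Nt5e, in replicate order, against 3.57, 1.96, 1.08 and 3.88 in PC replicates 1 to 4. This was the steadiest marker among MBCs, and the only one of the 5 for which the library labelled MBC replicate 3 was not the lowest of its group. The groups did not overlap, which held for 21.7% of all tested genes and for 2 of the 5 markers on scaled TPM, Nt5e and Entpd1. The MBC mean of 5.00 ± 0.367 scaled TPM (SD, n = 3) was 1.91-fold the PC mean of 2.62 ± 1.33 (SD, n = 4). The log2 fold change of -0.81 (SE 0.51, 95% interval -1.96 to 0.35) was not called (limma, adjusted p = 0.373), nor was it without the library labelled MBC replicate 3 (-0.76; limma, adjusted p = 0.341). The call depended on the scaling: on TPM as deposited the log2 fold change of Nt5e was -1.86 (limma, adjusted p = 0.0274), on a scale where the median of all tested genes was itself -0.91 in place of 0.14. There 3018 of the 11573 tested genes were called lower in PCs.

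Entpd1 (ENSMUSG00000048120; chr19:40612366-40741602, + strand) encodes CD39, which acts before CD73 on extracellular ATP. The MBC libraries had 4.08, 10.3 and 0.244 scaled TPM of Entpd1, in replicate order, against 40.9, 43.6, 140.6 and 41.3 in PC replicates 1 to 4. Every PC library was above every MBC library, and 3 of the 4 PC libraries had nearly the same level while PC replicate 3 was 3.35-fold above their mean. The means were 4.88 ± 5.08 (SD, n = 3) and 66.6 ± 49.3 scaled TPM (SD, n = 4), 13.6-fold higher in PCs. Without PC replicate 3 the PC mean was 41.9 ± 1.43 and the ratio 8.59-fold. The log2 fold change was 3.80 (SE 0.76, 95% interval 2.11 to 5.50; limma, adjusted p = 0.0136), the 303rd in size of the 11573 tested. It was called with each of the 7 libraries left out in turn, with log2 fold changes of 2.91 without the library labelled MBC replicate 3 (limma, adjusted p = 0.0136) and 3.39 without PC replicate 3 (limma, adjusted p = 0.0474), where 4.54% of tested genes were called higher and 1.1% lower. With no filter on low values, over 21326 genes, Entpd1 missed the threshold (limma, adjusted p = 0.0628).

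The level of Entpd1 in PC replicate 3 came with other values. Trac, a T cell receptor gene, was at 23.1 scaled TPM in that library and at 2.5, 6.5 and 16.0 in PC replicates 1, 2 and 4. Cd4 was at 6.42, against 0.362, 1.63 and 0.850. Cd3e went the other way, with 3.86 in PC replicate 3 and 11.8, 14.2 and 12.5 in PC replicates 1, 2 and 4. The 7 T cell genes summed to 40.2 scaled TPM there, to 15.3 to 36.8 in the other PCs and to 0 to 24.0 in MBCs, where Lck made up most of the sum and Cd3g and Cd8a were listed at 0. The 4 endothelial genes summed to at most 5.40 scaled TPM in any library and to 0.554 in PC replicate 3, and the 7 myeloid and dendritic genes to 4.42 to 10.7 in PCs and 7.89 to 40.1 in MBCs. The part of these transcripts in the Entpd1 result was not tested. The processed pseudogene Gm8783, inside Entpd1, was at 3.29 TPM in PC replicate 3 and at 0.68 or less elsewhere.

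**Figure D2:**
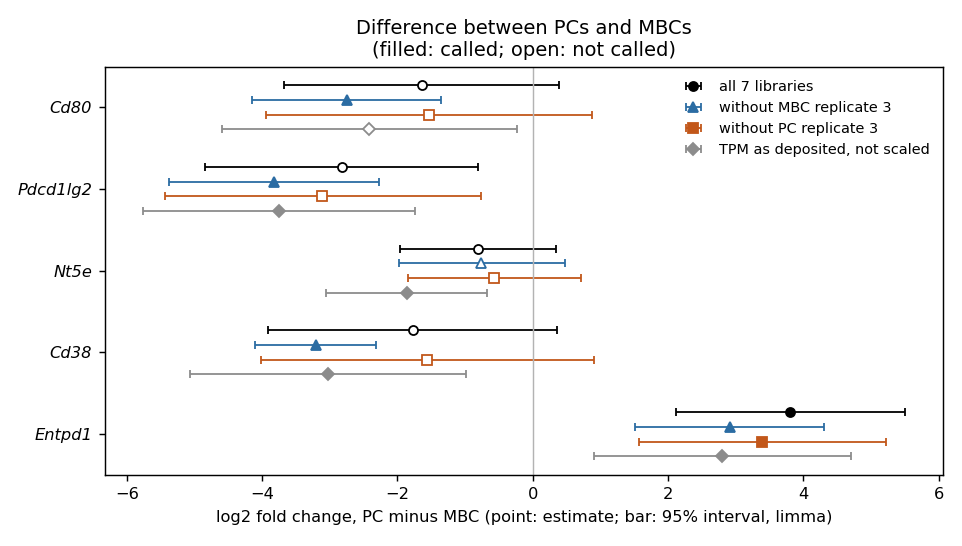
The horizontal axis is the log2 fold change, PC minus MBC, with the limma estimate as a point and its 95% interval as a bar, for all 7 libraries, without MBC replicate 3, without PC replicate 3 and on TPM as deposited, where filled points were called. Entpd1 is filled to the right of 0 in all 4 settings, between 2.80 and 3.80, while Cd80, Pdcd1lg2 and Cd38 are open with all libraries and filled without MBC replicate 3.

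The order of the 5 markers within a library differed between the groups. In MBC replicates 1 and 2, Cd38 had the highest TPM, then Pdcd1lg2, then Cd80, with Nt5e and Entpd1 last. In all 4 PC libraries Entpd1 was first and Cd38 second, and the order of Nt5e, Cd80 and Pdcd1lg2 below them changed from library to library. In the library labelled MBC replicate 3 the order was Cd38, Nt5e, Pdcd1lg2, Cd80 and Entpd1, so Entpd1 was last there as in MBC replicate 1. By percentile among the tested genes, Entpd1 stood at 38.5, 58.1 and 2.70 in MBCs and at 85.8 to 95.6 in PCs, and Cd80 at 58.2, 68.8 and 2.96 in MBCs and at 6.52 to 29.3 in PCs. Over the group means, Cd38, Pdcd1lg2, Cd80, Nt5e and Entpd1 followed each other in MBCs at 107.6, 23.4, 9.62, 5.00 and 4.88 scaled TPM. Each neighbouring pair overlapped when values were pooled over libraries, but within every MBC library Cd38 was above Pdcd1lg2 and Pdcd1lg2 above Cd80. Nt5e changed order with Cd80 and with Entpd1 from library to library. In PCs, Entpd1 at 66.6 and Cd38 at 16.4 scaled TPM were apart from each other and from the rest in every library, and Nt5e, Pdcd1lg2 and Cd80 at 2.62, 1.61 and 1.36 overlapped.

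The gap between the library labelled MBC replicate 3 and the other MBCs was wide for 4 of the markers. The mean of MBC replicates 1 and 2 was 50.6-fold its level for Cd80, 29.5-fold for Entpd1, 23.3-fold for Cd38 and 13.1-fold for Pdcd1lg2, and 0.927-fold for Nt5e. It was under 0.2 of the next lowest MBC library for those 4 of the 5 markers and for 3.04% of the 11573 tested genes. Its lowest members were near what the reads could resolve: an estimated 3 reads of a 1 kb transcript correspond to 0.126 scaled TPM in it, against 0.244 for Entpd1 and 0.283 for Cd80. The other CD28 ligand gene, Cd86, had no such gap, at 125.6 scaled TPM in that library.

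Within the more frequent title prefix, which holds MBC replicates 1 and 2 and PC replicates 1 to 3, the comparison gave log2 fold changes of -4.10 for Pdcd1lg2 (limma, adjusted p = 0.0191), -3.27 for Cd38 (limma, adjusted p = 0.00765) and 3.07 for Entpd1 (limma, adjusted p = 0.0327). Cd80 was at -2.73 (limma, adjusted p = 0.0516) and Nt5e at -0.93 (limma, adjusted p = 0.346). Of the 10250 genes tested within this prefix, 1014 were called higher and 448 lower in PCs. This comparison also leaves out the library labelled MBC replicate 3, so it is not separate from the results without that library. The other prefix has 1 library per group and no test. Between its libraries, MBC replicate 3 and PC replicate 4, Cd38 was at 6.77 and 18.1 scaled TPM, Cd80 at 0.283 and 0.850, Pdcd1lg2 at 2.59 and 2.83, Nt5e at 5.26 and 3.88 and Entpd1 at 0.244 and 41.3. Entpd1 and Nt5e thus had the same direction within both prefixes. Cd38, Cd80 and Pdcd1lg2 were higher in MBCs within the first prefix and, on scaled TPM, lower in the MBC library within the second. On TPM as deposited the MBC and PC library of the second prefix had 13.9 and 13.0 of Cd38 and 5.32 and 2.03 of Pdcd1lg2, so the direction turned for both, and 0.58 and 0.61 of Cd80.

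**Figure D3:**
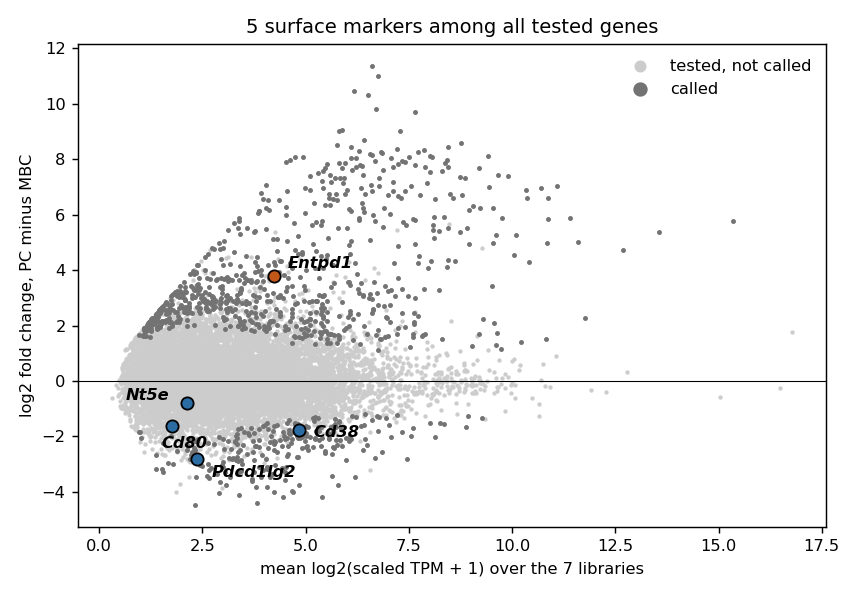
Each grey point is one of the 11573 tested genes, by its mean log2(scaled TPM + 1) over the 7 libraries on the horizontal axis and its log2 fold change, PC minus MBC, on the vertical axis, with called genes in dark grey and the 5 markers as large points. Entpd1, at 3.80, lies among called genes above 0, and the other 4 markers lie below 0, between -2.82 and -0.81, and were not called.

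Among the relatives and partners of the B7 ligands, 2 ligand genes were called lower and 2 receptor genes higher in PCs, as were 2.14% and 6.41% of all tested genes. Of the 10 genes of this list 5 could be tested, 1 ligand gene was not called, and their median log2 fold change was 0.36 against 0.14 for all tested genes. Cd86, the other ligand of CD28 and CTLA-4, had 89.4, 132.5 and 125.6 scaled TPM across the MBC libraries, in replicate order, against 3.51, 3.55, 8.59 and 7.07 in PC replicates 1 to 4. The library labelled MBC replicate 3 lay between the other MBC libraries for Cd86, and below both for Cd80. Its log2 fold change was -4.19 (SE 0.42; limma, adjusted p = 2.74e-04). Icosl, the ligand of ICOS, was at 31.5, 34.1 and 19.3 scaled TPM in MBCs and at 5.90, 3.12, 2.99 and 5.06 in PCs, and was called at -2.48 (SE 0.46; limma, adjusted p = 0.00882).

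Cd274, which encodes PD-L1 and is the closest relative of Pdcd1lg2, did not follow it. MBC replicates 1, 2 and 3 had 32.1, 17.1 and 1.10 scaled TPM of Cd274, against 35.0, 11.8, 9.41 and 6.68 in PC replicates 1 to 4. The groups overlapped, and the log2 fold change was 0.36 (SE 0.92, 95% interval -1.71 to 2.43; limma, adjusted p = 0.846). It did share the low value in the library labelled MBC replicate 3, where it was 22.4-fold below the mean of the other MBCs, and leaving that library out moved the log2 fold change to -0.82 (limma, adjusted p = 0.399), while TPM as deposited gave -0.77 with all libraries. The receptor of both, Pdcd1, was at 0.488 scaled TPM or less in every library.

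The genes of both receptors of CD80 were higher in PCs. Cd28 was listed at 0, 0 and 0.0292 scaled TPM across the MBC libraries, against 55.6, 55.7, 55.2 and 41.9 in PC replicates 1 to 4. Ctla4 was at 0, 0 and 0.614 in MBCs and at 16.9, 9.85, 4.49 and 12.9 in PCs. Both were called, Cd28 at 5.71 on the log2 scale (SE 0.42; limma, adjusted p = 5.56e-05) and Ctla4 at 3.23 (SE 0.57; limma, adjusted p = 0.00666), values that depend on the added constant of 1 because the MBC libraries are near 0. T cells carry both receptors, and Cd3e was at 11.8, 14.2, 3.86 and 12.5 scaled TPM in PC replicates 1 to 4 and at 0.658 or less in MBCs. The other T cell genes were uneven. Trac averaged 12.0 scaled TPM in PCs, but Cd3d, Cd3g, Cd4 and Cd8a averaged 0.83, 1.34, 2.32 and 0.125, each lower still in MBCs. Lck went the other way, with means of 3.44 in PCs and 12.4 in MBCs. The part of T cell transcripts in these differences was not tested.

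Among 20 partners and relatives of the ectoenzymes, 8 could be tested and 1 was called (8.55% of all tested genes were), with a median log2 fold change of 1.12 against 0.14 for all tested genes. The called gene was Alpl, tissue-nonspecific alkaline phosphatase, which like CD73 can release phosphate from AMP. The MBC libraries had 4.33, 0 and 0.292 scaled TPM of Alpl, against 14.2, 31.1, 42.1 and 16.3 in PC replicates 1 to 4, which gave 3.69 on the log2 scale (SE 0.69; limma, adjusted p = 0.0096). As with Entpd1, PC replicate 3 was the highest library. Ada, the deaminase that destroys adenosine, was at 15.1, 0.135 and 31.3 scaled TPM in MBCs and at 46.5, 50.8, 53.9 and 42.9 in PCs, which did not overlap and did not pass (log2 fold change 2.56, SE 0.95; limma, adjusted p = 0.138). Without the library labelled MBC replicate 3, 4 of the 8 were called, all higher in PCs, where 15.1% of all tested genes were: Alpl, Ada, the adenosine kinase gene Adk and Enpp1, which encodes a nucleotide pyrophosphatase. The direction of Enpp1 depended on the scaling, at 1.17 on the log2 scale from scaled TPM and -0.12 from TPM as deposited, over all 7 libraries.

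The closest enzyme relatives of the markers were at or near 0. Entpd2, Entpd3 and Entpd8, relatives of Entpd1, were listed at 0 in all 7 libraries, so Entpd1 was the one gene of these 4 with a level above 0. Bst1, the neighbour and paralog of Cd38, was at 0.134 scaled TPM or less. Of the adenosine receptors, Adora1 was at 1.5 scaled TPM in PC replicate 3 and listed at 0 elsewhere, Adora2a was at 0.966 scaled TPM or less and Adora2b was listed at 0 throughout.

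**Figure D4:**
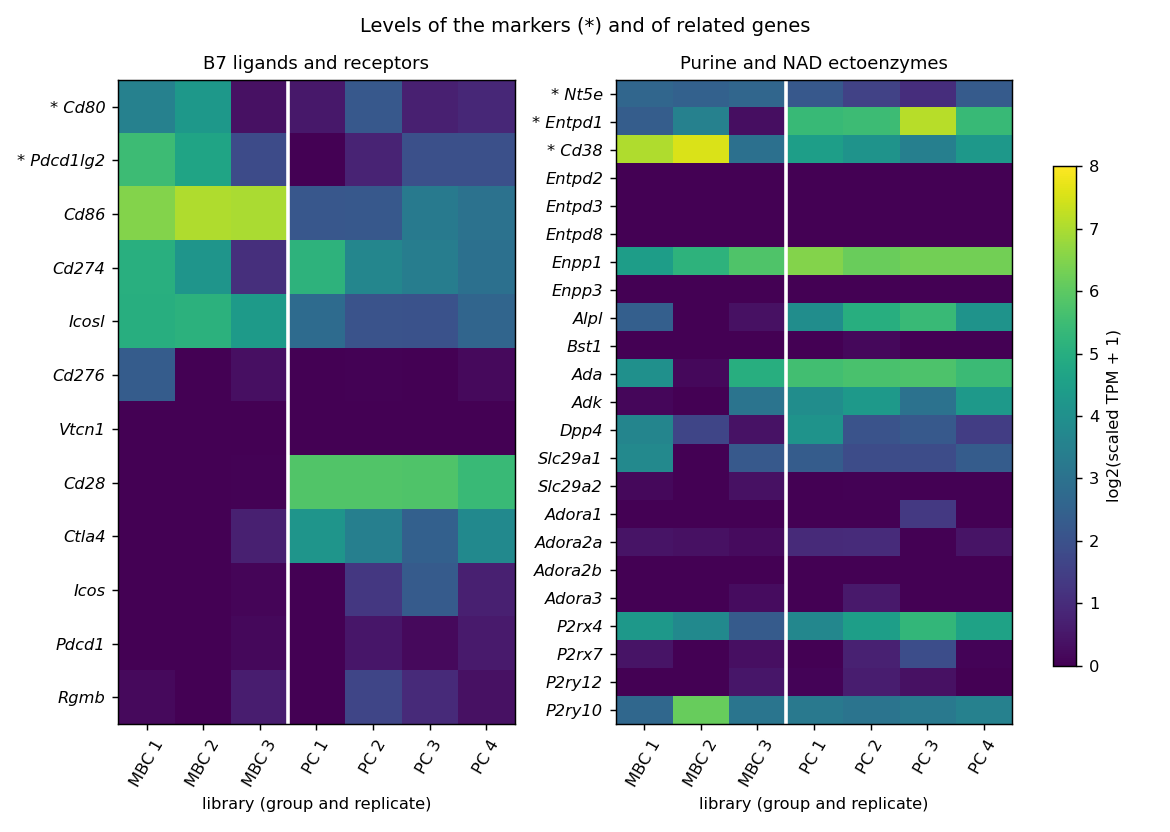
Colour gives log2(scaled TPM + 1), from 0 (dark) to 8 (yellow), for each gene (lines of the map) in each library (columns, MBCs left and PCs right of the white line), with the 5 markers starred. Cd86 and Icosl are bright in all 3 MBC libraries and Cd28 in the 4 PC libraries, Cd80, Pdcd1lg2 and Cd38 are brightest in MBC replicates 1 and 2, and Entpd1 is brightest in PC replicate 3.

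The tested genes most like each marker over the 7 libraries were found by Pearson's r of log2(scaled TPM + 1). The libraries fall into 2 groups and share scaling factors, so these values describe likeness and carry no test. For Cd38 they were Gpr183 (r = 0.994), a receptor that guides B cells to the outer follicle, Ifi203 (0.989) and Ralgps2 (0.988). Gpr183 had 37.0, 45.2 and 3.07 scaled TPM across the MBC libraries, against 4.13 to 6.16 in PCs, so it shared the low value in the library labelled MBC replicate 3. For Cd80 they were Sgpl1 (0.982), the lyase of sphingosine 1-phosphate, Ypel5 (0.981) and Ptov1 (0.964). For Pdcd1lg2 they were Gm10557 (0.992), Ice1 (0.992) and Orai2 (0.991), a calcium channel gene.

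For Entpd1 the most alike were Rrbp1 (0.977), which encodes a ribosome-binding protein of the endoplasmic reticulum, Fndc3a (0.974) and Sec24a (0.973), a coat protein of vesicles that leave the endoplasmic reticulum. Rrbp1 had 60.6, 134.2 and 26.0 scaled TPM across the MBC libraries, against 353.5, 338.9, 399.8 and 264.5 in PC replicates 1 to 4. It had the order of Entpd1 among MBCs, highest in replicate 2 and lowest in replicate 3, but in PC replicate 3 it was not set apart as Entpd1 was. For Nt5e the most alike were Rassf3 (0.948), Gm11263 (0.939) and Lst1 (0.937), the lowest values of r among the 5 markers.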

How the data were processed

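Bulk RNA-seq of 3 MBC and 4 PC libraries was analyzed, grouped by their descriptions. The authors deposited 1 table of TPM per gene. The submitters' processing notes name STAR 2.5.2a, RSEM 1.3.0, DESeq2 1.18.1 and GRCm38, with no role or order, and the annotation and strand setting are not given in the sources used here. The read depth behind a TPM was estimated, after the data were seen, from the steps between low values of genes with a single transcript: a TPM of 1 over 1 kb corresponded to 6.29 to 15.3 reads, and 69.4% to 83.0% of low values lay within 0.15 of a whole read, where 30.0% would by coincidence. Limits from it cover counting error only.

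TPM was divided by median-of-ratios size factors (1.82, 1.48 and 2.05 in MBCs, 0.636 to 0.813 in PCs). Genes at 1 TPM or more in at least 3 libraries were tested by limma 3.58.1 (R 4.3.3; trended empirical Bayes on log2(scaled TPM + 1), two-sided, Benjamini-Hochberg over all 11573 genes), with no covariate. The fits and the depth estimate were tested on simulated data. Symbols matched 48349 of the 48795 gene identifiers. Gene coordinates are from GENCODE M21 on GRCm38. Motifs and likeness were computed in Python 3.11.15 (pandas 2.3.3, numpy 2.4.6), and plots drawn with matplotlib 3.10.9. The markers, the lists of relatives and of cell types, and the tests were chosen with earlier results of these data known. Genes named were the 5 markers, the called genes of the lists of relatives and a few more of their members, up to 3 genes per cell type list with the highest means (others where a value turned on them were chosen after their values were seen), and for each marker the 3 genes with the highest r. Alternatives covered the scaling, pseudocount, filter, variance trend, replicate and code blocks, title prefix and leaving out each library. Protein sequences were not used here.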

Additional observations from a re-analysis of the deposited data

Results flagged for a closer look

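Among the 4 PC libraries the highest and the lowest value of each gene were examined for a gap to the nearest other library that was too large a part of the group's spread by the critical value of Dixon's test for 4 samples. Of 17 genes examined, 4 had such a gap, where chance at 1 in 20 gives 0.85. The MBC group, with 3 libraries, was not examined in this way.

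Entpd1 was at 140.6 scaled TPM in PC replicate 3, far above the 40.9 to 43.6 of the other PC libraries. Cd80 was at 3.55 scaled TPM in PC replicate 2, above 0.425 to 0.850 in the others, and it is 1 of the 3 values that let Cd80 enter the test. Cd28 was at 41.9 scaled TPM in PC replicate 4, below the 55.2 to 55.7 of the others. Bst1 was at 0.134 scaled TPM in PC replicate 2 and listed at 0 in the others, a level below that of the estimated 3 reads of a 1 kb transcript in that library (0.291 scaled TPM). With the others at 0, any level above 0 would have been flagged.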

How the results depend on the processing

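No marker changed direction under any alternative in which it was tested. On TPM as deposited, Pdcd1lg2 (log2 fold change -3.75, limma, adjusted p = 0.0144), Nt5e (-1.86, adjusted p = 0.0274) and Cd38 (-3.03, adjusted p = 0.0334) became called. Within the more frequent title prefix, which lacks MBC replicate 3, Pdcd1lg2 (-4.10) and Cd38 (-3.27) became called. There 448 of 10250 tested genes were called lower. Entpd1 lost its call with no filter on low values (3.80, limma, adjusted p = 0.0628, over 21326 genes tested). Leaving out single libraries gave log2 fold changes of -2.75 to -1.46 for Cd80, which was tested without MBC replicate 3 and PC replicates 1, 3 and 4 but not without the others. Over all 7 libraries left out in turn the range was -3.82 to -2.06 for Pdcd1lg2, -3.21 to -0.95 for Cd38, -1.0 to -0.57 for Nt5e and 2.91 to 4.46 for Entpd1. The first value for Cd80, Pdcd1lg2 and Cd38 is that without the library labelled MBC replicate 3, the only one of the libraries left out whose removal made them called. Cd38 was at -0.95 without MBC replicate 2.

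With all libraries 742 genes were higher and 248 lower in PCs, so 74.9% of calls were higher. This split was 472 and 3018 on TPM as deposited (13.5%), 384 and 408 with immunoglobulin genes removed (48.5%), and 675 and 460 with quantile normalization (59.5%). It was 437 and 123 with no filter, and 1014 and 448 within the more frequent prefix, of 10250 genes tested there. Leaving out single libraries gave 456 to 1624 higher and 93 to 881 lower genes, the largest of both without the library labelled MBC replicate 3 and the smallest of both without PC replicate 2. Of the ectoenzyme relatives 1 to 4 were called without single libraries, 2 with the prefix as a covariate and 3 within the more frequent prefix.

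MBC and PC libraries share replicate numbers and title codes, and the labels do not say whether either marks a pair. The deviations of same-numbered libraries from their group means correlated at 0.109, -0.0398 and -0.0832, and those with the same code at 0.109, -0.00436 and 0.222. All MBC and PC pairs ranged from -0.176 to 0.222, the top value being the same-code pair of MBC replicate 3 and PC replicate 4. These few correlations cannot decide whether the samples are paired, and the main fit did not pair them. With a replicate block by number, which leaves out PC replicate 4, Entpd1 was at 3.95 (limma, adjusted p = 0.05001), 390 genes were higher and 60 lower, and 2 of the B7 relatives were called, without Icosl (-2.56, limma, adjusted p = 0.0798) and Ctla4 (3.12, limma, adjusted p = 0.0715). No ectoenzyme relative (0) was called, and Alpl was at 3.86 (limma, adjusted p = 0.0502). With the block by code, which leaves out PC replicate 2, 434 genes were higher and 83 lower, 3 of the B7 relatives were called, without Icosl (-2.37, limma, adjusted p = 0.0841), and 0 ectoenzyme relatives. The cause of these changes was not tested. With 3 and 4 libraries, differences the size of those of Cd80 and Nt5e lie within the intervals of the fit, and levels under about 0.126 to 0.392 scaled TPM for a 1 kb transcript rest on an estimated 3 reads or fewer.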
